A study of Mus musculus with 2 samples.

Results

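The imprinted loci that carry their methylation mark on the paternal chromosome, H19/Igf2, Dlk1/Meg3 and Rasgrf1, were examined in 2 lists of enrichment peaks from mouse embryonic stem cells. Members were all peaks of either list that touched 1 of 3 intervals of the mm9 genome build. These were chromosome 7 from 149.72 to 149.89 Mb for H19 and Igf2, chromosome 12 from 110.64 to 110.86 Mb for Dlk1 and Meg3, and chromosome 9 from 89.72 to 89.97 Mb for Rasgrf1. They held 83 of the 100871 peaks in all, 41 of 55292 in the control list and 42 of 45579 in the knockdown list. The control library (shGFP) came from E14 embryonic stem cells, a pluripotent line, transfected with a short hairpin RNA against GFP. The knockdown library (shDnmt3L) came from the same line transfected with a hairpin against Dnmt3L. Each group was 1 library, so no difference below has a replicate check and no test was made. The level of Dnmt3L was not measured in these data. The labels name the assay MeDIP, which captures 5-methylcytosine, while the extraction protocol names a glucosylation-based kit for 5-hydroxymethylcytosine, so the peaks are not tied to either modification here.

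At an imprinted locus, genes are expressed from the maternal or the paternal chromosome according to a DNA methylation mark set in the germ line. At H19/Igf2 the mark lies near H19, a noncoding RNA expressed from the maternal chromosome, and decides whether the insulator protein CTCF separates the growth factor gene Igf2 from its enhancers. At Dlk1/Meg3 it lies between Dlk1, which encodes a membrane protein related to Notch ligands, and the maternally expressed noncoding RNA Meg3. At Rasgrf1, which encodes a guanine nucleotide exchange factor for Ras, it lies upstream of the gene beside a repeat. Dnmt3L has no methyltransferase activity of its own, binds the de novo enzymes, and is required for germ line imprints. In the RefSeq table of the later build GRCm38, Gm33148 lies between H19 and Igf2 on chromosome 7. On chromosome 12, Gm34081 follows Dlk1 and Gm34017 precedes Meg3, so neither pair is adjacent there. No coordinates were carried between builds, so no peak was assigned to a gene, promoter or imprint control element.

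The substrate of both modifications is mainly the cytosine of CpG, and start-site sequences of these genes differ widely in how many CpGs they hold. They are shown for that reason, with no peak placed on them. RefSeq (GRCm38) gave windows for 4 of the 5 genes, 8 in all, cut here to the 250 bases before each start. The window with the most CpGs is printed for Igf2, Meg3 and Rasgrf1, 5′ to 3′ on the gene's own strand, with each CpG in capitals.
Igf2: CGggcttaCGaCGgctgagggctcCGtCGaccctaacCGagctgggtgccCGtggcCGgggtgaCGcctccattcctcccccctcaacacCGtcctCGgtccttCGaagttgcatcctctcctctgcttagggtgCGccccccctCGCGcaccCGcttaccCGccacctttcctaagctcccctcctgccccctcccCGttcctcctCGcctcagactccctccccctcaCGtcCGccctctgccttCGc
Meg3: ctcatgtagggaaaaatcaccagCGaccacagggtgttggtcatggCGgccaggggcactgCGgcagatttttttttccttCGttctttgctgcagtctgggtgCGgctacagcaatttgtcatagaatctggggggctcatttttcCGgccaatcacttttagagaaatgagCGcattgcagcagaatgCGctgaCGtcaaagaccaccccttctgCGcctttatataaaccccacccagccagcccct
Rasgrf1: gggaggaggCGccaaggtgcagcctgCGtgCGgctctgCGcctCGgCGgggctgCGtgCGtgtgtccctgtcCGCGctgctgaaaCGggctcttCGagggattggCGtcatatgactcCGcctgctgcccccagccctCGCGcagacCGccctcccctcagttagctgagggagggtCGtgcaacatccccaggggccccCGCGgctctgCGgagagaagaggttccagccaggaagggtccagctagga
The Igf2 sequence held 22 CpGs, that of Rasgrf1 21 and that of Meg3 10. Among 32851 such windows in the table the median was 6, and 14.8%, 16.3% and 37.8% held at least as many, in the same order. The other 3 Igf2 windows held 1, 10 and 6 CpGs, the other Meg3 window 0, and the Dlk1 window 8.

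Across the loci, peak number was nearly the same in both libraries but more sequence lay under peaks in shDnmt3L. The whole lists were unequal, with 55292 shGFP and 45579 shDnmt3L peaks. The 41 shGFP peaks (exact 95% Poisson interval 29.4 to 55.6) covered 106 kb and the 42 shDnmt3L peaks (30.3 to 56.8) covered 141 kb, or 16.6% and 22.0% of the 640 kb examined. The ratio of covered length was 1.32 at the loci and 1.05 over the whole lists. Peak numbers per locus differed by 1, and their order changed with the settings. Each locus had a higher covered length in shDnmt3L. The ratio was 1.61 at H19/Igf2 (20.7 and 33.4 kb), 1.16 at Dlk1/Meg3 (64.3 and 74.7 kb) and 1.52 at Rasgrf1 (21.4 and 32.7 kb). In each locus 1 shDnmt3L peak of at least 5 kb had no shGFP peak under it, as the map of peaks along the intervals shows. Without these 3 peaks the ratio over the loci was 1.11. That left in a shDnmt3L peak of 4175 bp at H19/Igf2, also without a shGFP peak, 32 bp from the 10909 bp one. Together these 2 spanned 15.1 kb, so the higher covered length at H19/Igf2 rests on this stretch. The width of 5 kb was chosen after the peaks were seen.

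**Figure D1:**
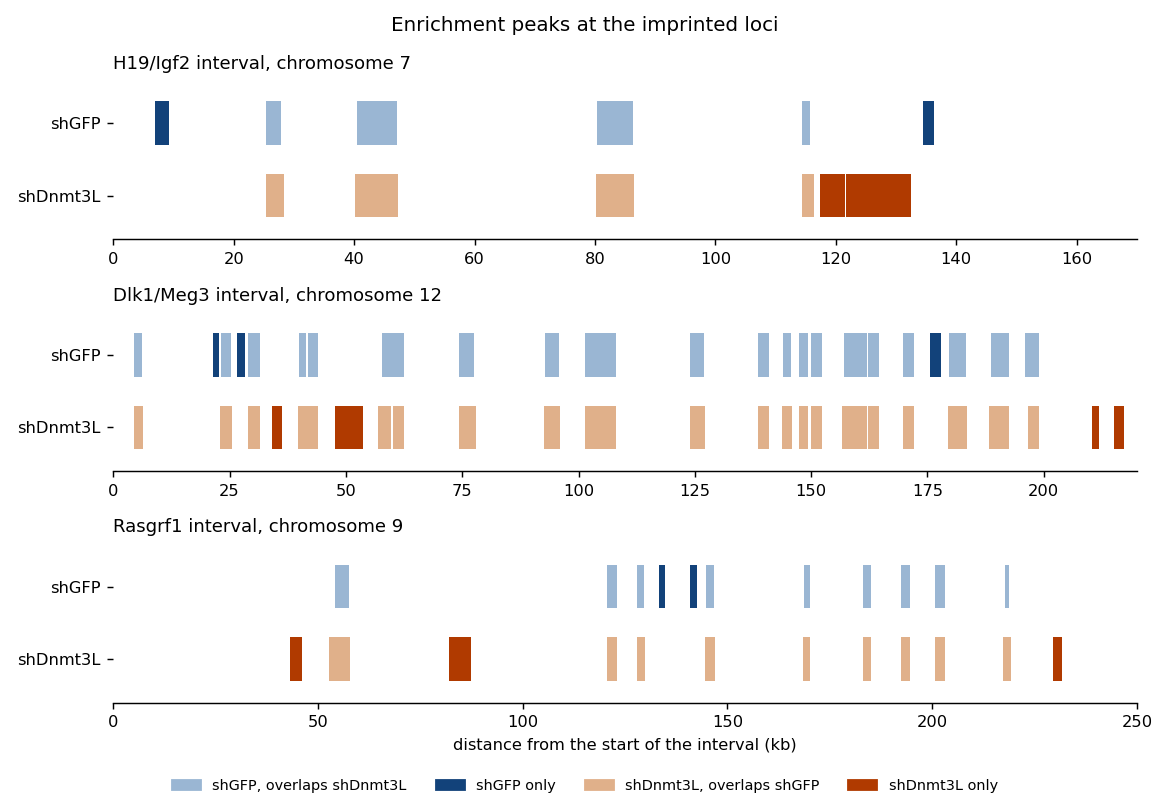
Peaks of both libraries along each interval, with the distance from the interval start in kb on the horizontal axis and 1 row per library. Dark blocks are unshared peaks; the widest dark block of each locus is a shDnmt3L peak of 10.9 kb (H19/Igf2), 5.97 kb (Dlk1/Meg3) or 5.59 kb (Rasgrf1).

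H19/Igf2 had 7 shGFP and 6 shDnmt3L peaks, or 41.2 and 35.3 per Mb, 2.08 and 2.22 times the density of chromosome 7. Stretches of 170 kb laid end to end along the autosomes (14522) held a median of 2 shGFP peaks (quartiles 0 and 6). For shDnmt3L the median was 1 (0 and 5), so both numbers were just above the upper quartile. A trio of features of high score was present in both libraries. One was a peak from 149760464 to 149767151 in shGFP, 6688 bp wide, matched by one of 6995 bp from 149760227 to 149767221 in shDnmt3L. Its score stood at the 98.5th percentile of the shGFP list and the 97.6th of the shDnmt3L list. Another was a single shDnmt3L peak of 6300 bp from 149800111 to 149806410, the highest-scoring member of either library relative to its own list, at the 99.4th percentile. In shGFP the same stretch was called as a pair of peaks, of 2867 bp from 149800426 to 149803292 and of 3101 bp from 149803294 to 149806394, which were 1 bp apart. They stood at the 98.7th and 96.8th percentiles, so the difference here was in how the stretch was divided, with 94.7% of the shDnmt3L peak under shGFP peaks. The last of them was a peak of 2495 bp from 149745433 to 149747927 in shGFP and of 2926 bp from 149745406 to 149748331 in shDnmt3L, at the 88.3rd and 83.3rd percentiles. A weaker shared peak measured 1446 bp in shGFP, from 149834338 to 149835783, and 2128 bp in shDnmt3L, from 149834326 to 149836453, at the 32.8th and 21.3rd percentiles.

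The libraries differed most in the part of the interval that follows this weak peak. In shDnmt3L a peak of 4175 bp from 149837421 to 149841595 was followed after 32 bp by a peak of 10909 bp from 149841628 to 149852536. Together they spanned 15.1 kb, within an 18.7 kb stretch where shGFP had no peak. The wider of the pair scored 536.51, the 97.0th percentile of its list, and the other 112.64, the 57.1st. The nearest shGFP peaks were 1637 bp before the first and 1989 bp after the second. Of the 16.8 kb of the interval under shDnmt3L peaks only, 89.6% lay in this pair. In the other direction, the 2 shGFP peaks with no shDnmt3L partner were narrow and low in rank. One, from 149726924 to 149729198, was 2275 bp wide at the 33.3rd percentile, and the other, from 149854526 to 149856381, was 1856 bp wide at the 3.73rd. Between the feature at 149760464 and that at 149800426, neither library had a peak over 33.3 kb in shGFP and 32.9 kb in shDnmt3L.

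Dlk1/Meg3 was the most densely marked of the loci, with 23 shGFP and 24 shDnmt3L peaks. This was 105 and 109 peaks per Mb, 5.91 and 7.52 times the density of chromosome 12 as a whole (17.7 and 14.5 per Mb). Peaks covered 29.2% of the interval in shGFP and 33.9% in shDnmt3L. On all autosomes the shares were 4.77% and 5.02%. Stretches of the same length laid end to end along the autosomes (11220) held a median of 3 shGFP peaks (quartiles 1 and 8) and of 2 shDnmt3L peaks (0 and 6). Of the shGFP peaks here, 17 had a single shDnmt3L partner that had no other partner, 3 more took part in a division or joining of peaks, and 3 had no partner.

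The highest-scoring peak of the Dlk1/Meg3 interval was the same stretch in both libraries. It ran from 110797071 to 110802060 in shGFP (4990 bp, score 573.5, 97.8th percentile) and from 110796699 to 110802094 in shDnmt3L (5396 bp, score 501.48, 96.5th percentile). The other leading shGFP peaks were from 110783847 to 110785738, at the 97.7th percentile, and from 110732827 to 110735899, at the 96.1st. Their shDnmt3L partners, from 110783815 to 110785961 and from 110732477 to 110735975, stood at the 94.8th and 94.9th. The same 3 stretches thus led the locus in each list, though the last 2 of them changed places. The widest shared peak measured 6546 bp in shGFP, from 110741421 to 110747966, and 6610 bp in shDnmt3L, from 110741389 to 110747998. The next shGFP peak, after a gap of 16.1 kb, ran from 110764064 to 110767028 (2965 bp, 86.5th percentile). Its partner in shDnmt3L ran from 110764032 to 110767140 (3109 bp, 76.8th percentile). The largest gain in width here was 535 bp, for a shGFP peak of 3220 bp from 110714249 whose partner measured 3755 bp.

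The widest difference at Dlk1/Meg3 was a shDnmt3L peak of 5967 bp from 110687661 to 110693627. Its score of 273.6 was at the 88.1st percentile, rank 8 of the 24 in the interval, and the nearest shGFP peak was 3680 bp away. The 3 other shDnmt3L peaks with no partner were 2106 bp wide from 110674083 to 110676188, 1588 bp from 110850255 to 110851842 and 2181 bp from 110855062 to 110857242. They were among the weakest of the locus, at the 22.6th, 4.54th and 0.972nd percentiles. The shGFP peaks with no partner, of 1322 bp from 110661421, 1705 bp from 110666697 and 2288 bp from 110815599, were weak too, at the 12th, 0.786th and 13.0th percentiles. The first of them ended 138 bp before a shDnmt3L peak. Peak division went both ways: shDnmt3L had 1 peak of 4243 bp from 110679770 over a shGFP pair of 1542 and 2122 bp, and shGFP had 1 peak of 4684 bp from 110697774 over a shDnmt3L pair of 2830 and 2397 bp.

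Rasgrf1 had 11 shGFP and 12 shDnmt3L peaks in 250 kb, at 44.0 and 48.0 per Mb, 1.93 and 2.50 times the density of chromosome 9. Autosomal stretches of that length (9874) held a median of 3 shGFP peaks (quartiles 1 and 9) and of 2 shDnmt3L peaks (0 and 7). The leading peak of the locus was the same in both libraries and began 54.3 kb into the interval in shGFP and 52.7 kb in shDnmt3L. It measured 3424 bp in shGFP, from 89774264 to 89777687, with a score of 761 at the 98.9th percentile, the highest rank of any shGFP peak at the 3 loci. In shDnmt3L it measured 5111 bp, from 89772689 to 89777799, with a score of 704.27 at the 98.4th percentile. The shDnmt3L peak began 1575 bp before the shGFP peak and ended 112 bp after it. This was the largest gain in base pairs among all one-to-one pairs of the loci, 1687 bp, and a ratio of widths of 1.49.

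A shDnmt3L peak of 5589 bp from 89801886 to 89807474 had no shGFP counterpart within 24198 bp, the largest such distance at the loci. It scored 306.04, the 90.3rd percentile, and had rank 3 in the interval. In shGFP the stretch from 89777688 to 89840696, 63.0 kb, held no peak. The other unshared shDnmt3L peaks were of 2852 bp from 89763273 to 89766124 (38.6th percentile) and of 2163 bp from 89949543 to 89951705 (8.39th). The 8 shared peaks after the leading one began 121 kb or more into the interval, and their widths in shGFP ran from 1061 to 2404 bp. The strongest of these measured 1508 bp in shGFP, from 89888672 to 89890179, and 1824 bp in shDnmt3L, from 89888388 to 89890211, and had rank 2 in the locus in both lists. It was followed in shGFP by peaks of 2084 bp from 89864684 (89.2nd percentile) and of 2232 bp from 89840697 (87.3rd), whose partners of 2320 and 2284 bp stood at the 85.4th and 82.5th. The largest gain by ratio was at 89937804 to 89938864, a shGFP peak of 1061 bp whose partner measured 2016 bp, 1.90-fold wider. The 2 unshared shGFP peaks, of 1371 bp from 89853272 and 1651 bp from 89860973, stood at the 21.6th and 30.4th percentiles.

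Most locus peaks had a counterpart in the other library. Of the shGFP peaks 34 of 41 (82.9%, exact Clopper-Pearson 95% interval 67.9 to 92.8%) overlapped a shDnmt3L peak by at least 1 bp, and 31 of these 34 lay wholly under shDnmt3L peaks. The 7 without a partner were 17.1% of the locus peaks, against 25.5% of all shGFP peaks. Of the shDnmt3L peaks 33 of 42 (78.6%, 63.2 to 89.7%) overlapped a shGFP peak, and the 9 without one were 21.4%, against 12.6% of all shDnmt3L peaks. The shares over the whole lists, 74.5% and 87.4%, lay inside these intervals, which allow for counting error alone and count neighbouring peaks as if unrelated. By locus the shared shares were 71.4% and 66.7% at H19/Igf2, 87.0% and 83.3% at Dlk1/Meg3 and 81.8% and 75% at Rasgrf1, for shGFP and shDnmt3L in that order. Counts of 6 to 24 peaks do not allow these to be told apart.

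Unshared shGFP peaks of the loci were all low in score, while the unshared shDnmt3L peaks included low and high ones, much as in the whole lists. All 7 unshared shGFP peaks scored below 100, as did 95.9% in the whole list, and 5 of the 9 unshared shDnmt3L peaks did, against 66.1% in the list. The median width of the unshared peaks was 1705 bp in shGFP (1605 bp in the list) and 2852 bp in shDnmt3L (2474 bp). Of the 9 in shDnmt3L, 3 were 5 kb wide or more. These were 7.14% of the locus peaks, against 1.23% of all shDnmt3L peaks, and since the width was chosen with these peaks in view the 2 shares are a description only. Wide peaks, shared or not, were more frequent at the loci than in the whole list in both libraries. In shGFP 2 of 41 (4.88%) reached 5 kb, against 1.34% of the list. In shDnmt3L 8 of 42 (19%) did, against 5.18% of the list. Of those 8, 3 were unshared (37.5%), against 23.7% of the 2363 in the list. Score rose with width over the shDnmt3L list, with medians of 214.1 at 4 to 5 kb, 369.2 at 5 to 10 kb (quartiles 270.6 and 524.1) and 864.2 at 10 to 15 kb (lower quartile 664.5). Among unshared peaks the medians of the last 2 classes were 327.8 and 753. The 5967 and 5589 bp peaks, at the narrow end of their class, scored 273.6 and 306.04, and the 10909 bp peak, at the narrow end of its own, scored 536.51.

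Counted by bases, 60.1% of the sequence under any peak at the loci was under peaks of both libraries, nearly as over the whole lists (60.4%). What differed was the division of the rest. Bases under shDnmt3L peaks only made up 31.1% at the loci and 21.9% in the lists, and those under shGFP peaks only made up 8.84% and 17.8%. H19/Igf2 had the highest share of bases in shDnmt3L only (44.8%), followed by Rasgrf1 (40.0%) and Dlk1/Meg3 (20.8%). Unshared peaks accounted for 78.3% of the shDnmt3L-only bases at the loci and for 53.7% in the lists. The remainder lay in shared shDnmt3L peaks, outside the shGFP peaks they overlapped.

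**Figure D2:**
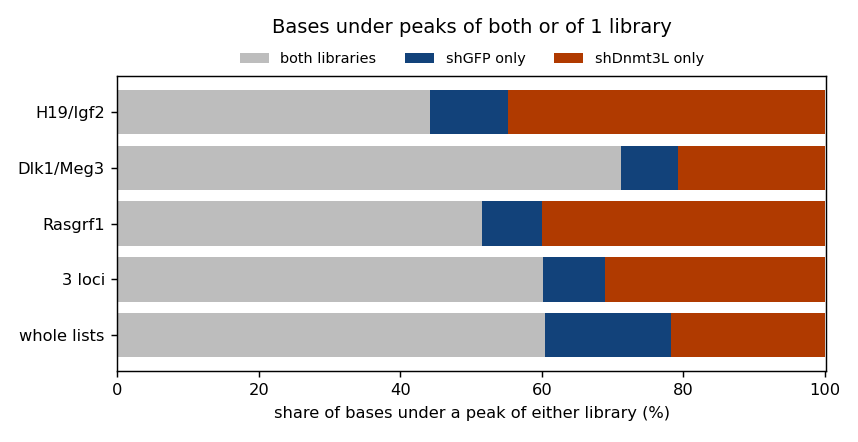
Share of the bases under a peak of either library that lay under peaks of both libraries or of 1 library only, in percent, for each locus, the 3 loci together and the whole lists. The shDnmt3L-only part was 44.8% at H19/Igf2, 20.8% at Dlk1/Meg3, 40.0% at Rasgrf1 and 21.9% in the whole lists.

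Among one-to-one pairs, where a peak of each list overlapped no other, the shift in width at the loci had the direction seen over the whole lists. The shDnmt3L peak was the wider of 27 of 29 pairs (93.1%), against 81.7% of 37952 pairs in the lists. At the loci the shDnmt3L peak exceeded its partner by a median of 200 bp (quartiles 52 and 415 bp, range −706 to 1687 bp), and in the lists by 145 bp (32 and 402 bp). All 3 pairs of H19/Igf2 and all 9 of Rasgrf1 were wider in shDnmt3L. At Dlk1/Meg3 15 of 17 were, with a median difference of 144 bp. The 2 exceptions were peaks at 110802149, 20 bp narrower in shDnmt3L, and at 110835979, 706 bp narrower. One pair of 29 (3.45%) was at least 1.5-fold wider in shDnmt3L, against 8.60% of all pairs. The shDnmt3L start lay on the shGFP start in 7 pairs (24.1%, against 19% in the lists) and 32 bp before it in 8 (27.6%, against 20.7%). The ends were the same in 6 pairs (20.7%, against 18.1%) and 32 bp further out in 4 (13.8%, against 20.2%).

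**Figure D3:**
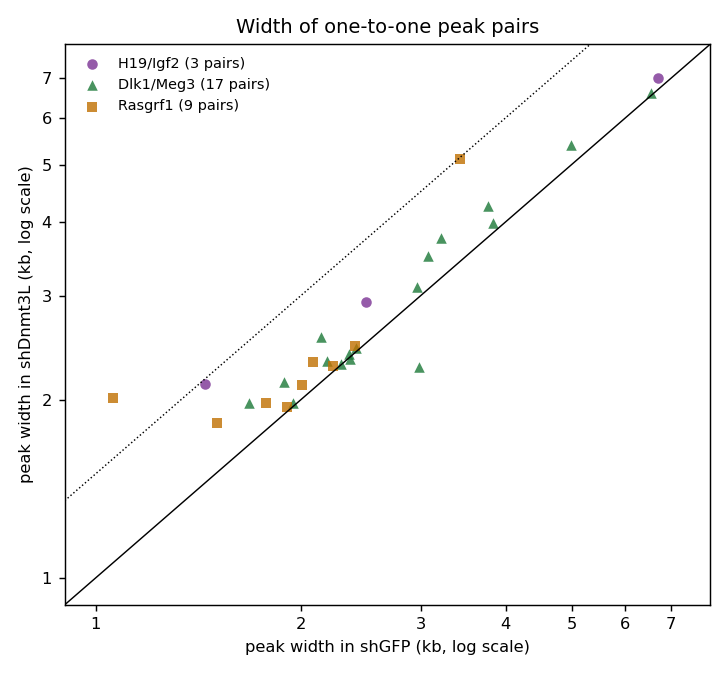
Width of each one-to-one peak pair in shGFP (horizontal) and shDnmt3L (vertical), in kb on log axes, with 1 symbol per locus; the solid line marks equal width and the dotted line a 1.5-fold greater width in shDnmt3L. Of 29 pairs 27 lie above the solid line, and 1, of Rasgrf1, lies clearly above the dotted line at 1061 and 2016 bp.

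Peaks of the loci ranked high in both lists. The median member stood at the 78.5th percentile of the shGFP list and the 81.3rd of the shDnmt3L list, where the median of all peaks is 50 by construction. With the intervals widened by 50 kb at each end the medians were 70 and 59.5, so the shDnmt3L value in particular depends on the interval ends. Percentiles are given within each list and are not compared in size between lists of different length. At H19/Igf2 the medians were 88.3 and 90.1, at Dlk1/Meg3 86.5 and 81.5, and at Rasgrf1 57.4 and 40.0. Scores of 100 or more were reached by 28 of 41 shGFP peaks (68.3%, against 48.0% of the list) and 27 of 42 shDnmt3L peaks (64.3%, against 49.5%). The highest decile of its own list held 13 of the shGFP and 11 of the shDnmt3L members, among the latter the 10909 and 5589 bp peaks that shGFP lacked. At Rasgrf1, 6 of the 10 shGFP peaks other than the leading one lay above the list median, as did 4 of 11 in shDnmt3L.

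**Figure D4:**
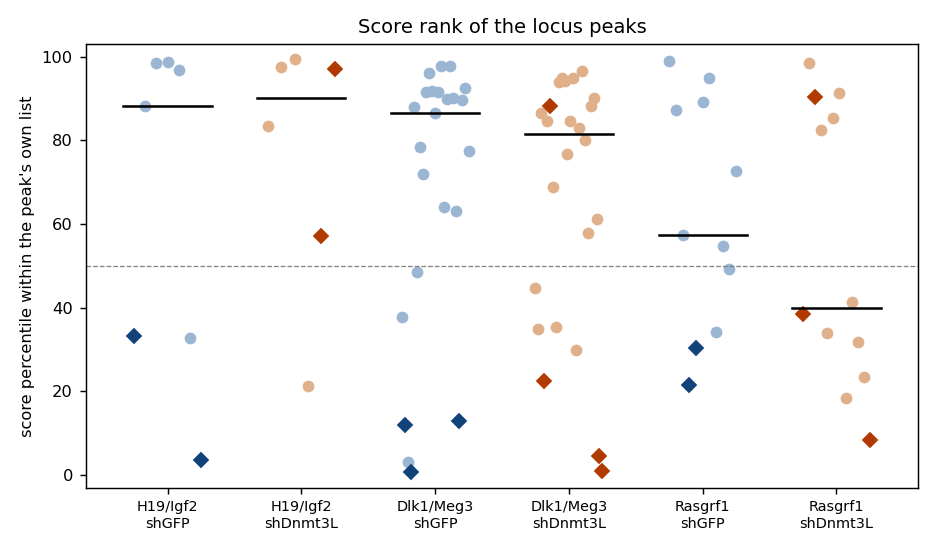
Score percentile of each locus peak within the list of its own library (vertical axis, 0 to 100), by locus and library; diamonds are unshared peaks, circles shared peaks, black bars medians, and the dashed line the median of a list. The shGFP diamonds all lie below 50, while the shDnmt3L diamonds reach 97.0 at H19/Igf2, 88.1 at Dlk1/Meg3 and 90.3 at Rasgrf1.

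The intervals were set by position, and the peaks around their ends ranged from weak to strong. At H19/Igf2 the first shGFP peak inside, at the 33.3rd percentile, lay 6.92 kb from the edge, and the nearest outside, at the 46th, 16.7 kb from it. An unshared shDnmt3L peak of 1813 bp lay 3.52 kb outside the same edge. The first shDnmt3L peak inside, at the 83.3rd percentile, lay 25.4 kb from it. Beyond the far edge the nearest peak was 183 kb away in both libraries, and the last peaks before it stood at the 3.73rd percentile in shGFP and the 97.0th in shDnmt3L. At Dlk1/Meg3 the nearest outside peaks were 77.9 kb before the interval in shGFP and 14.1 kb after it in both libraries, the latter at the 70th and 57.8th percentiles. The last peaks inside stood at the 77.4th percentile in shGFP and the 0.972nd in shDnmt3L. At Rasgrf1 a shared peak lay 3.01 kb before the interval, and the next after it was 102 kb away in both, at the 66th percentile in shGFP and the 69.8th in shDnmt3L. The first shGFP peak inside was the leading one, 54.3 kb from the edge, and the last stood at the 72.6th percentile.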

How the data were processed

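The members were taken from 1 peak list per library. Each list, as deposited by the authors, gives positions, peak names and a score from the peak caller. The minimum score was 50.01 in shGFP and 50 in shDnmt3L, which equals 10 times −log10 of a p of 1e-05. That meaning was read from the values. CASAVA 1.8, Bowtie 0.12.7 and MACS 1.4.1 are named without roles, and mm9 as the build, per the submitters' processing notes. Whether an input control was used, how duplicates were treated and how deeply each library was read is not given in the sources used here. Peak number and width can move with depth. Positions count from 1.

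Overlap, widths, covered length (clipped to the interval) and mid-rank score percentiles were computed in Python 3.11.15 (pandas 2.3.3, numpy 2.4.6, scipy 1.17.1). Overlap was tested on a copy of the shGFP list with peaks dropped or widened at random. Overlap, covered length and score ranks were also tested on small made-up lists. A chromosome was taken to end with its last peak. Every peak was to be named in an interval with 10 or fewer in a library, and otherwise the unshared, the 3 highest-scoring, the 3 widest and the most changed. The members and lists were chosen with earlier results of these data known. The alternatives set a score of at least 100, trimmed the longer list to the length of the shorter, joined peaks up to 500 bp apart, or changed the overlap rule or the interval ends.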

Additional observations from a re-analysis of the deposited data

How the results depend on the processing

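Of 52 alternative values over the 3 loci, 50 kept to a set range, 1 moved and 1 reversed. The range was a factor of 1.5 for counts, lengths and ratios, the counting interval for shares and the quartiles for widths and percentiles. It was wide enough to keep a covered-length ratio of 1.11 without the 3 wide peaks, against 1.32. A shDnmt3L median percentile of 59.5 with widened intervals, against 81.3, was also kept. At scores of 100 or more the shDnmt3L peaks numbered 27 in place of 42, and the ratio of peak numbers reversed from 1.02 to 0.964. The shGFP number was then 28, so the libraries differed by 1 peak with and without this limit. With lists trimmed to equal length there were 36 shGFP and 42 shDnmt3L peaks, a ratio of 1.17. With intervals widened by 50 kb there were 49 and 52, a ratio of 1.06. The ratio of covered length over the loci ran from 1.31 to 1.45 across score, list length and interval settings. By locus it stayed above 1 in all 12, from 1.61 to 2.07 at H19/Igf2, 1.12 to 1.31 at Dlk1/Meg3 and 1.22 to 1.52 at Rasgrf1. At H19/Igf2 every setting kept the adjoining pair of shDnmt3L peaks on which the higher covered length rests. The wide shDnmt3L peaks without a shGFP peak numbered 3 in 5 of the alternatives added after the data were seen, and 4 with a width of 4 kb. Requiring an overlap of 50% of both peaks also gave 4, by adding the 6300 bp peak of H19/Igf2. That peak lay 94.7% under a pair of shGFP peaks, each too narrow to meet the rule, so it did not lack shGFP peaks. Of 111 values per locus, 97 stayed in range, 8 moved and 6 lost or turned their direction. All 6 were ratios of peak number, whose main values rest on differences of 1 peak. At H19/Igf2 the ratio was 0.857, and 1.25 at scores of 100 or more, 1 with lists trimmed to equal length and 1.2 with intervals widened by 50 kb. At Rasgrf1 it was 1.09, and 0.714 at scores of 100 or more (7 shGFP and 5 shDnmt3L peaks) and 1 with widened intervals. At Dlk1/Meg3 it was 1.04, and 1 at scores of 100 or more. Trimming to equal length left shDnmt3L whole, so its peak numbers and covered lengths could not change. The ratios of peak number and covered length could then only stay or rise, so they are no check on a ratio above 1. The upper ends of 1.45 over the loci and 1.31 at Dlk1/Meg3 came from this setting. No peak crossed an interval end, so keeping only peaks wholly inside could not change any value. Such values are among the 52, the 111 and the 12 above. The cause of the shifts was not tested. No paired analysis was possible because there was 1 library per group. How deeply each was read, which bears on how many weak peaks are found, is unknown.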
